A study of Mus musculus with 2 samples.

Results

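Aminoacyl-tRNA synthetases are the enzymes that join each amino acid to its transfer RNA (tRNA) before translation. They are described here in cultured mouse cardiac myofibroblasts, with and without a knockdown of Bcat1. Of 24532 genes in the deposited count table, 36 are synthetase genes of the chosen list, found by their symbols, and no symbol needed a changed spelling. They comprise 20 genes for cytosolic enzymes and 16 for mitochondrial enzymes, whose symbols end in 2. The rule that finds the members uses no measured value.

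The cells were cardiac myofibroblasts, the contractile, matrix-secreting form of fibroblasts in injured heart, taken from C57BL/6 mice 3 days after myocardial infarction. They received 12.5 nM of either a control siRNA (siControl) or 1 siRNA against Bcat1 (siBcat1) and were cultured for another 72 hours. Both groups share the strain, the infarction, the culture medium and the transfection, and how many mice or cultures each library came from is not given in the sources used here. Each group has 1 mRNA library, so no difference below has a replicate check, a test or a p-value. The siControl library held 127309329 counts and the siBcat1 library 104581819. Bcat1, which encodes the cytosolic aminotransferase for leucine, isoleucine and valine, went from 8891 counts (siControl) to 99 (siBcat1). All 12 fibroblast and myofibroblast markers were detected in both libraries, with a summed level of 20605 TPM (a level corrected for transcript length and depth) in siControl and 12652 TPM in siBcat1. The members went both ways, with Col1a1 at 3869 and 1071 TPM and Vim at 5343 and 5566 TPM. For this list and those that follow, TPM in siBcat1 carries a general downward shift. At the median gene its log2 ratio was 0.51 below that of scaled counts (described below). Of the 6 macrophage and leukocyte markers, Ptprc and Adgre1 were at 0 in both libraries, while the sum of the list was 13.0 TPM in siControl and 32.3 TPM in siBcat1. Most of that sum was Lyz2, with 717 and 2159 counts (10.7 and 29.5 TPM), and Cd68 had 66 and 155 counts. The heart muscle markers Myh6 and Ryr2 were at 0 in both, and Tnnt2 had 80.6 and 12.6 TPM. The 4 endothelial markers summed to 20.1 and 13.6 TPM and the 4 smooth muscle and pericyte markers to 6.44 and 2.88 TPM. The part of these other markers in the results was not tested.

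As background, the nuclear genome encodes 1 set of synthetases for the cytosol and another for the translation of the mitochondrial genome. Gars and Kars, which charge glycine and lysine, serve both compartments from a single locus. Eprs charges both glutamate and proline, and Farsa and Farsb encode the subunits of the phenylalanine enzyme. Several cytosolic enzymes are held in the multisynthetase complex on scaffold proteins. Uncharged tRNA activates the kinase GCN2 (gene Eif2ak4), which through translation of the transcription factor ATF4 raises many genes of amino acid supply, cytosolic synthetase genes among them. Leucine, isoleucine and valine, the substrates of BCAT1, are charged by Lars, Iars and Vars in the cytosol and by Lars2, Iars2 and Vars2 in mitochondria.

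Promoters were compared because the composite element bound by ATF4 with its partners is a known feature of synthetase promoters. RefSeq windows (GRCm38.p6) reach from 250 bases before the start site to 50 after it and were found for 27 of the 36 members, 13 cytosolic and 14 mitochondrial. Aars2 has 2 windows, which makes 15 mitochondrial windows. Cars, Hars, Lars, Nars, Rars, Vars, Wars, Hars2 and Pars2 had no entry. The letters TGATGCAA, searched on both strands, were in 4 of the 13 cytosolic windows and in none of the 15 mitochondrial ones, against 0.895% of all 32851 windows of the same length. With 1 free position (TGATGNAA, which includes the first motif), 5 cytosolic windows, none of the mitochondrial ones and 3.97% of all windows matched. The cyclic AMP response element TGACGTCA was in none of the windows of members (1.79% of all), and the interferon-stimulated response element (ISRE, with 2 free positions) was in 1, that of Qars (3.44% of all). A match is a description of letters and does not show binding.
The windows shown are those of the 4 genes with TGATGCAA, then those of Eprs, a gene that was lower in siBcat1 without these letters in its window, and of Lars2, the lowest mitochondrial gene. They run 5′ to 3′ along the gene's strand, and capitals mark TGATGNAA on either strand.
Aars: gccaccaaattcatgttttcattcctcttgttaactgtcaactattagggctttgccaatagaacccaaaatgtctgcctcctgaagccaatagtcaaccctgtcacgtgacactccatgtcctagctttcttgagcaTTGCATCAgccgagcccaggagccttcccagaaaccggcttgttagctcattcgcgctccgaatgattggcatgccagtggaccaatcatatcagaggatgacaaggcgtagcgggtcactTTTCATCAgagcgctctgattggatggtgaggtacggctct
Iars: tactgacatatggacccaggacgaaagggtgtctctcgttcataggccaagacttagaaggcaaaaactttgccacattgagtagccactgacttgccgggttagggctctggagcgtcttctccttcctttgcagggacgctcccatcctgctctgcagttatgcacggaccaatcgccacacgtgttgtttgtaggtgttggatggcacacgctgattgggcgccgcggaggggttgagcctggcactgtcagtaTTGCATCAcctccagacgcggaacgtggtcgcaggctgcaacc
Tars: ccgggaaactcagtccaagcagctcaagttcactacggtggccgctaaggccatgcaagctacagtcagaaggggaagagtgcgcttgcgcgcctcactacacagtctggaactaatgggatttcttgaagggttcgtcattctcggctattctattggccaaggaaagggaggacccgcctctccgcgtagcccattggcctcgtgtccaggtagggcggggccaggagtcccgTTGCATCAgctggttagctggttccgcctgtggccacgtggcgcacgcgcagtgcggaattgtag
Yars: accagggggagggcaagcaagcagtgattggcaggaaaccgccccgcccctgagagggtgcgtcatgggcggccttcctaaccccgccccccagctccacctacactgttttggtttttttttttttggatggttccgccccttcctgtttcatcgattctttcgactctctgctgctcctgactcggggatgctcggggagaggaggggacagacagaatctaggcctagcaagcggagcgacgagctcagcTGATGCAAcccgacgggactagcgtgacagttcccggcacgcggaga
Eprs: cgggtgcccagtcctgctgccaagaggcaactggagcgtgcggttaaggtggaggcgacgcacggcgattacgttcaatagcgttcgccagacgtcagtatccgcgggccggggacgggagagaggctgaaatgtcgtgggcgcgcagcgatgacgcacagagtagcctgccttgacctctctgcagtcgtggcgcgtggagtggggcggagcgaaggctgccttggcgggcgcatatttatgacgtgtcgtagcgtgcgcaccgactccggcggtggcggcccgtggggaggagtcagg
Lars2: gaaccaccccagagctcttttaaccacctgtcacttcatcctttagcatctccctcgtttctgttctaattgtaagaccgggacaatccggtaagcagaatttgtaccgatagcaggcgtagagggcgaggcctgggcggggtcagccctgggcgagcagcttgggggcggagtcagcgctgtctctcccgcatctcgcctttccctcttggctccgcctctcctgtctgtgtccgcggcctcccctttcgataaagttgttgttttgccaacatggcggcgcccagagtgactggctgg
These windows lie at chr8:111033592-111033891 (Aars, plus strand), chr13:49681880-49682179 (Iars, plus strand), chr15:11399609-11399908 (Tars, minus strand), chr4:129189653-129189952 (Yars, plus strand), chr1:185362794-185363093 (Eprs, plus strand) and chr9:123366677-123366976 (Lars2, plus strand). The match of Aars begins 112 bases before the start site and that of Tars 15 bases before it. The matches of Iars and Yars begin at base 8 and base 4 after it, counted from 1 at the start site. Aars has a further match of the wider motif at base 10 after its start, and Gars has one 30 bases before its start.

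Cytosolic synthetases were the more abundant set. In siControl their levels ran from 47.6 TPM for Lars to 315 TPM for Gars, with a median of 89.1 TPM. The 16 mitochondrial genes ran from 2.28 TPM for Ears2 (glutamate) to 42.2 TPM for Iars2 (isoleucine), with a median of 9.44 TPM. Summed over members, the cytosolic set held 12.4 times the TPM of the mitochondrial set in siControl and again 12.4 times in siBcat1. The ratio of the medians was 9.44 in siControl and 11.9 in siBcat1. In siBcat1 the cytosolic genes ran from 24.0 TPM for Wars, the tryptophan enzyme, to 226 TPM for Gars, and the mitochondrial genes from 0.788 TPM for Lars2 to 26.3 TPM for Iars2. Gars and Nars (asparagine) kept ranks 1 and 2 of the cytosolic set in both libraries. Aars (alanine) moved from rank 3 to rank 6, Eprs from 10 to 15, Iars from 15 to 19 and Wars from 14 to 20.

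**Figure D1:**
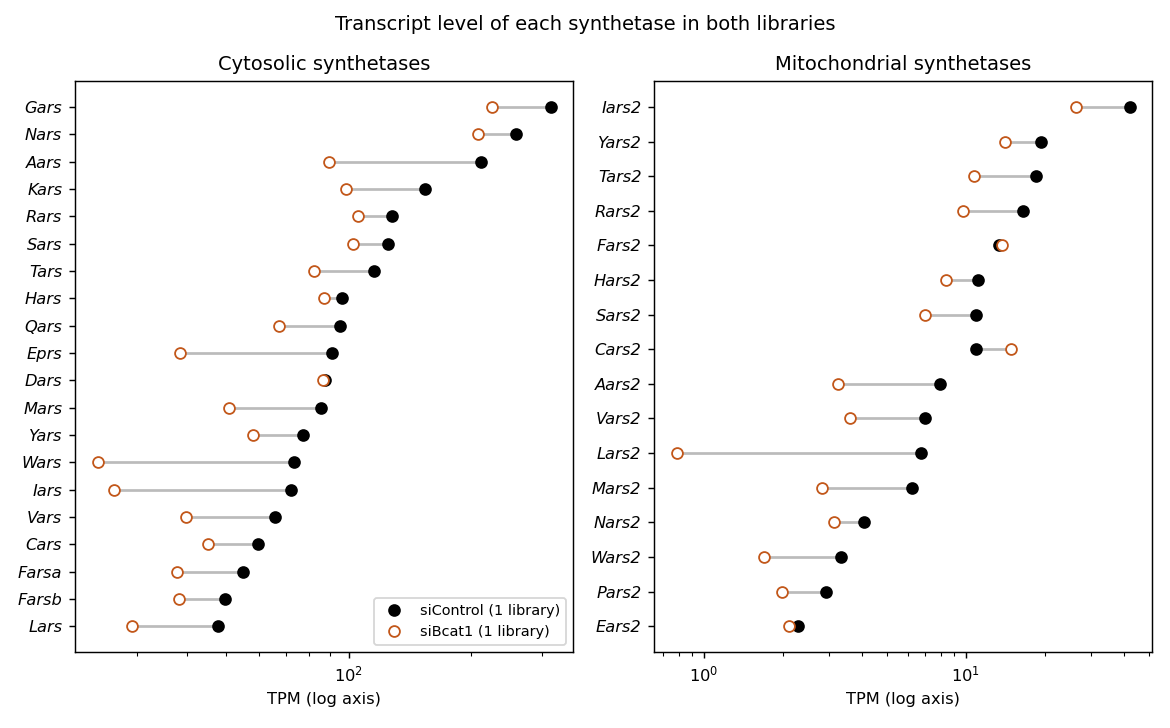
Level of each synthetase in TPM on a log axis, 1 library per point (filled: siControl; open: siBcat1), sorted by siControl; panels have different axis ranges. Aars, Eprs, Iars and Wars have the longest gaps among cytosolic genes and Lars2 has the longest among mitochondrial genes.

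For folds between libraries, counts were scaled by trimmed mean of M values factors and expressed relative to library size (CPM), and a mean of 5 CPM over both libraries was set as the minimum. The log2 fold is siBcat1 over siControl, with an exact (Clopper-Pearson) 95% interval in brackets that covers counting error only. A member at least 1.5-fold away is called lower or higher as a rule of size. All 20 cytosolic genes and 15 mitochondrial genes passed the minimum, the exception being Pars2, the proline enzyme of mitochondria, with 440 and 307 counts. Of 9934 genes, 25.6% were at least 1.5-fold lower and 17.6% at least 1.5-fold higher in siBcat1. Of the cytosolic genes, 4 of 20 (20%) were lower, none was higher and 16 lay between. Of the mitochondrial genes, 3 of 15 (20%) were lower, 1 was higher and 11 lay between. The shares of lower genes were thus close to that of all genes. The median log2 fold was 0.01 over the cytosolic genes, -0.17 over the mitochondrial genes and -0.06 over all genes. The mean of the cytosolic genes was -0.13, of opposite sign to their median, and that of all genes was also -0.13. The middle 50% of the cytosolic folds lay between -0.23 and 0.12, against -0.60 to 0.42 for all genes.

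The cytosolic genes that were lower were Wars, Iars, Aars and Eprs. Wars (chromosome 12, 108860030 to 108894174, on the minus strand of GRCm38) went from 13066 counts (siControl) to 4706 counts (siBcat1), which is 99.4 and 46.5 CPM and a log2 fold of -1.10 [-1.15 to -1.05]. Iars (chromosome 13, 49682100 to 49734267, plus strand) had 20073 and 8021 counts, 153 and 79.2 CPM, a log2 fold of -0.95 [-0.99 to -0.91]. These were the cytosolic members furthest below siControl, Wars by 2.14 times and Iars by 1.93 times. Aars (chromosome 8, 111033144 to 111057664, plus strand) had 49878 and 23043 counts, 379 and 227 CPM, a log2 fold of -0.74 [-0.76 to -0.72]. Eprs (chromosome 1, 185363044 to 185428360, plus strand) had 27901 and 12892 counts, 212 and 127 CPM, a log2 fold of -0.74 [-0.77 to -0.71]. The remaining 16 cytosolic genes lay between -0.25 (Mars, methionine) and 0.49 (Dars, aspartate). In these unadjusted folds a gap thus separated the 4 lower genes from the others. With the length trend removed (described below) the gap did not remain. Eprs (-0.27) and Aars (-0.11) then lay among the others, above Farsa (-0.32) and Kars (-0.31). The place of Aars rests on the length taken. With the length implied by the TPM (also described below), Aars had -0.44, below Kars at -0.33, and Eprs had -0.23, above Kars. Together the 4 lower genes made up 27.0% of the cytosolic CPM in siControl and 16.6% in siBcat1. The others summed to 2287 CPM in siControl and 2418 CPM in siBcat1, a log2 ratio of 0.08. Since the 4 were chosen as lower in these same libraries, their falling share follows from the choice and is a description.

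Among the other cytosolic genes, Dars had 12323 and 13385 counts, 93.8 and 132 CPM, and was the highest with 0.49 [0.46 to 0.53], just short of the 1.5-fold limit at 0.585. Hars (histidine) followed with 0.36 [0.33 to 0.40] from 12122 and 12005 counts. Rars (arginine) had 0.23, Sars (serine) 0.22 and Nars 0.19. Lower values within the limit belonged to Mars (-0.25), Vars (-0.23), Lars (-0.20) and Kars (-0.15). Gars, the most abundant, had 363 and 370 CPM and a log2 fold of 0.03 [0.01 to 0.05]. The glutamine gene Qars had 0.01, the threonine gene Tars 0.02, the subunit genes Farsa and Farsb -0.03 and 0.10, the tyrosine gene Yars 0.10 and the cysteine gene Cars 0.10.

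**Figure D2:**
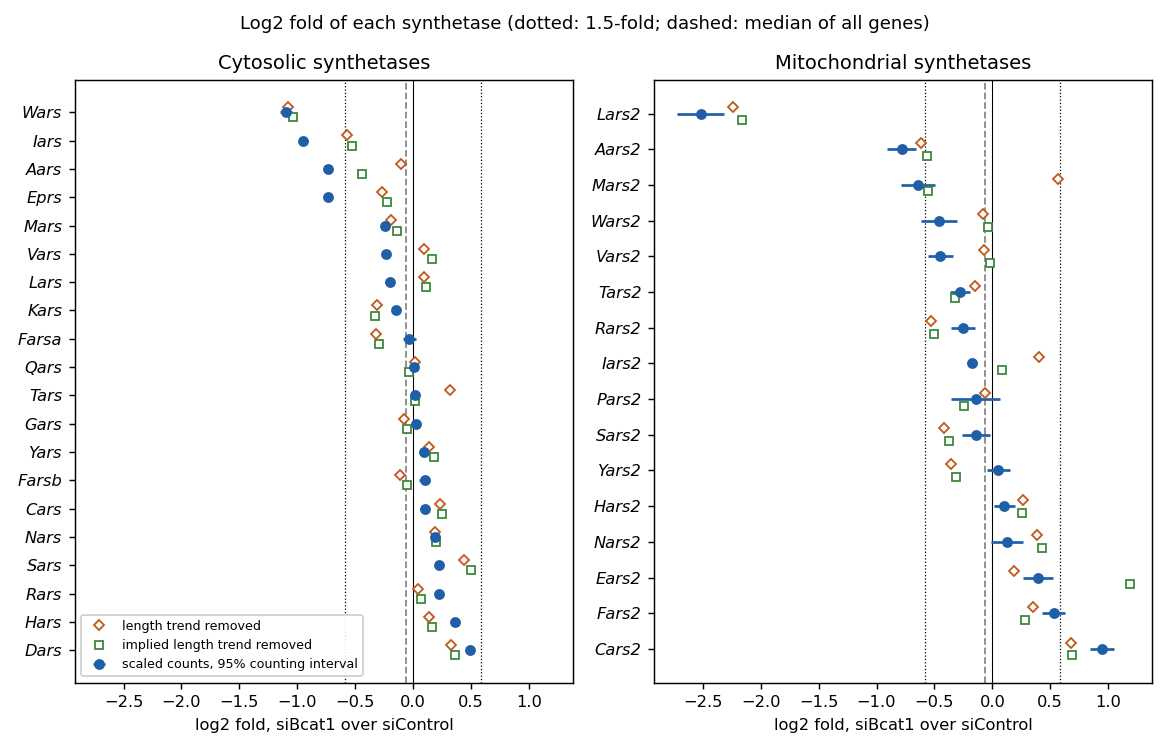
Log2 fold of each synthetase, siBcat1 over siControl, with 1 library per group: points with 95% counting intervals are scaled counts, open diamonds and squares are the same folds with a length trend removed. Wars and Lars2 stay left of the 1.5-fold line in all versions, whereas Aars, Eprs, Iars, Aars2 and Mars2 cross it in 1 or both adjusted versions.

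Among mitochondrial genes Lars2, the leucine enzyme (chromosome 9, 123366927 to 123462666, plus strand), had the largest difference of all members. It had 1672 counts in siControl and 225 in siBcat1, 12.7 and 2.22 CPM, a log2 fold of -2.52 [-2.73 to -2.32], or 5.73 times lower. Of all 9934 genes, 95 (0.956%) were as low or lower. Aars2, the alanine enzyme (chromosome 17, 45506841 to 45520843, plus strand), had 1686 and 756 counts and -0.78 [-0.91 to -0.66]. Mars2, the methionine enzyme (chromosome 1, 55237177 to 55248470, plus strand), had 1139 and 564 counts and -0.64 [-0.79 to -0.49], an interval that reaches across the 1.5-fold limit. Cars2, the cysteine enzyme (chromosome 8, 11513977 to 11550783, minus strand), was the member called higher, with 1283 and 1902 counts, 9.76 and 18.8 CPM and a log2 fold of 0.94 [0.84 to 1.05]. Cars2, with 10.9 and 14.8 TPM, and Fars2 (phenylalanine), with 13.3 and 13.7 TPM, were the 2 members with a higher TPM in siBcat1. Fars2 had 0.53 and Ears2 0.39 in scaled counts, below the limit. Iars2, the most abundant, had 9463 and 6463 counts and -0.17 [-0.22 to -0.13]. The other mitochondrial genes that passed the minimum lay between -0.46 (Wars2, tryptophan) and 0.13 (Nars2, asparagine).

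For 14 amino acids the cytosolic gene could be set beside its mitochondrial partner, with Farsa standing for phenylalanine. The cytosolic gene had the lower fold in 4 pairs and the higher fold in 10, with a median difference of 0.14. With the length trend removed the split was 7 and 7. In 3 pairs, those of alanine, asparagine and tyrosine, the counting intervals of the partners overlapped. Aars and Aars2, with -0.74 and -0.78, were the pair in which both genes were called lower. In the leucine pair Lars had -0.20 and Lars2 -2.52, so the cytosolic transcript went from 7.05 to 37.0 times the mitochondrial TPM. In the isoleucine pair the order was the other way, with -0.95 for Iars and -0.17 for Iars2. There the ratio went from 1.71 to 1.00, at 26.3 TPM for either gene in siBcat1. The tryptophan pair had -1.10 for Wars and -0.46 for Wars2. The cysteine pair had 0.10 for Cars and 0.94 for Cars2. In siControl the cytosolic gene had the higher TPM in all 14 pairs, by 1.71 times (isoleucine) to 63.4 times (asparagine).

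**Figure D3:**
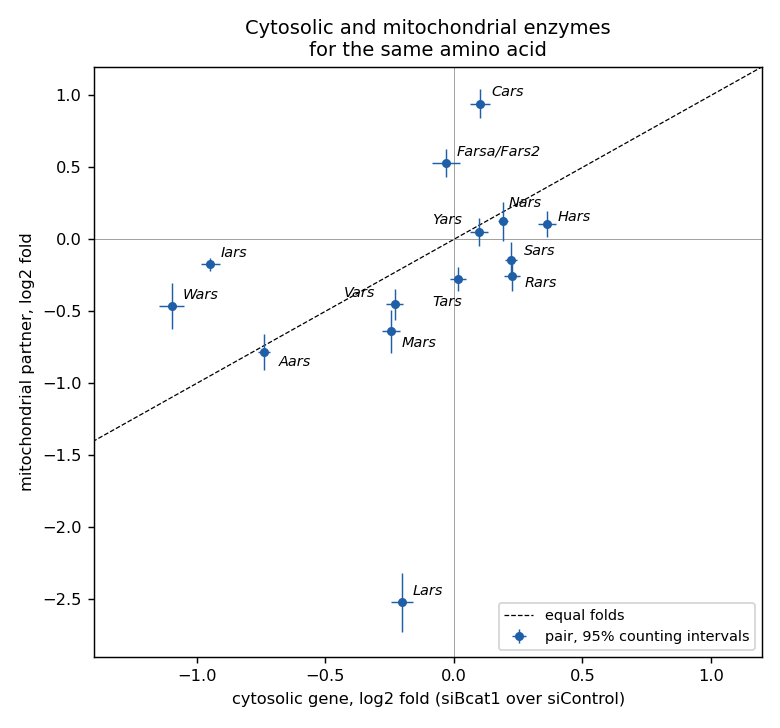
Log2 fold (siBcat1 over siControl) of the cytosolic gene on the horizontal axis and of its mitochondrial partner on the vertical axis for 14 amino acids, named by the cytosolic gene, with 95% counting intervals and 1 library per group. Lars lies far below the line of equal folds, Iars and Wars lie above it, and Aars lies on it.

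Grouped by the amino acid they charge, all 6 genes for the branched-chain amino acids were below 0, as were 5286 of the 9934 genes tested. At least 1.5-fold lower were 2 of the 6 (Iars and Lars2), against 25.6% of all genes. Vars and Vars2, the valine genes, had -0.23 and -0.45. The median of these 6 was -0.34, at a median transcript length of 4281 bases, and their length-adjusted median was 0.01, with 3 of the 6 below 0. Of the genes for glutamate, glutamine and proline, Eprs was lower, while Qars had 0.01 and Ears2 0.39. Pars2 had a log2 fold of -0.14 [-0.36 to 0.07].
The 8 cytosolic genes of the multisynthetase complex (Dars, Eprs, Iars, Kars, Lars, Mars, Qars and Rars) had a median of -0.18, with 2 lower and none higher. The 12 genes outside it had a median of 0.06, also with 2 lower and none higher. The shares lower were thus 25% and 16.7%, against 25.6% of all genes. Length-adjusted, the medians were -0.09 and 0.12, with 0 of the 8 and 1 of the 12 lower, against 14.1% of all genes. Of 13 cytosolic genes linked to ATF4 by textbook knowledge, 4 were lower (30.8%, against 25.6% of all genes tested) and the median was -0.20. None of the other 7 was lower, and their median was 0.10. These 2 sets also differed in median length, 3570 against 2109 bases, and length-adjusted their medians were 0.10 and 0.02. Within the ATF4-linked set the genes with TGATGCAA in their window were divided, with Aars and Iars at -0.74 and -0.95 and Tars and Yars at 0.02 and 0.10. Of the enzymes' structural classes, the 9 genes of class I had a median of -0.20 and the 10 of class II one of 0.06. Length-adjusted, the medians were 0.04 and 0.03.

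Transcript length moved with the folds. Over all 9886 genes with a length, the log2 fold and the length had a Spearman correlation of -0.65, and over the 35 synthetases that passed the minimum it was -0.57. This describes genes of the same 2 libraries, which are not independent replicates. Lower cytosolic genes were 2831 bases (Wars) to 5750 bases (Aars) long, and the others 1826 to 4137 bases. A lowess trend on log2 length was therefore subtracted from all genes, which leaves the length-adjusted fold. Of all genes, 14.1% were then at least 1.5-fold lower and 13.2% at least 1.5-fold higher. Of the cytosolic genes, Wars alone was still lower, with -1.08, and 441 of 9886 genes (4.46%) were as low. Iars had -0.57, just inside the limit, Eprs -0.27 and Aars -0.11. Of the mitochondrial genes, Lars2 (-2.24) and Aars2 (-0.62) were lower and Cars2 (0.68) was higher. Mars2 turned to 0.57 at its annotated 11294 bases.
Lengths from the annotation may differ from the gene models that were counted, and the ratio of count to TPM gives the length the authors used, up to a constant. With the trend on that implied length removed, Lars2 had -2.17, Wars -1.04, Aars2 -0.57, Mars2 -0.55, Iars -0.52, Aars -0.44 and Eprs -0.23. Cars2 had 0.69 and Ears2 1.19, so that 2 mitochondrial genes were higher and 1 was lower. The share of all genes past the limit was not taken for this trend, so these counts have none to stand beside. The values of Aars, Mars2 and Ears2 rest on which length is taken. So do those of Tars (0.32 annotated, 0.02 implied) and Iars2 (0.40 annotated, 0.09 implied), among others. Aars2 was past the 1.5-fold limit with the annotated length (-0.62) but not with the implied one (-0.57). Wars, Lars2 and Cars2 stayed on their side of that limit with either length.

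**Figure D4:**
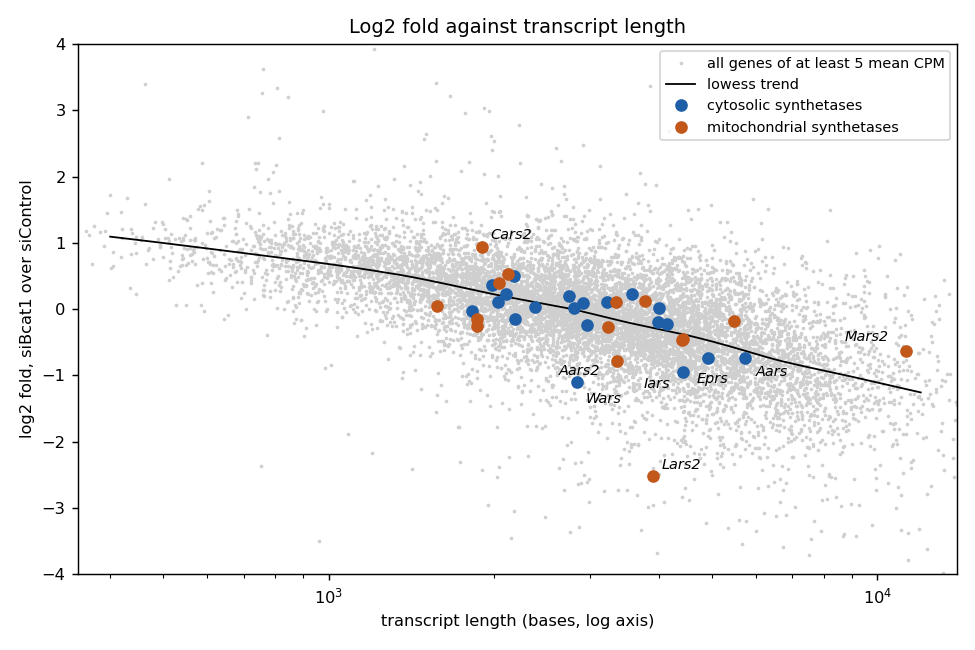
Log2 fold (siBcat1 over siControl) against transcript length in bases on a log axis, for all genes that passed the minimum (grey) and the synthetases (blue: cytosolic; orange: mitochondrial), with the lowess trend as a line. Aars lies near the trend and Mars2 above it, and Wars and Lars2 lie below it at lengths of 2831 and 3894 bases.

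On the deposited TPM scale all folds were shifted downwards. The log2 ratio of TPM was 0.51 below that of scaled counts at the median gene. The 36 members followed this shift to within 0.1, and 33 of them to within 0.02. In log2(TPM + 1), 8 cytosolic and 8 mitochondrial genes were at least 1.5-fold lower and none was higher, against 46.5% and 3.56% of all genes. The cytosolic median was -0.49, the mitochondrial one -0.66 and that of all genes -0.52. Across 9 ways of scaling or adjusting, Wars ranged from -1.60 to -0.95 and Lars2 from -2.95 to -2.12, and these were the 2 members at least 1.5-fold lower in each. The same sign in all 9 was kept by 13 members. Among these, Aars2 was below 0 and at least 1.5-fold lower in 7, and Iars and Eprs were below 0 and lower in 6 each. Cars2 was above 0 in all 9 and at least 1.5-fold higher in 7. Fars2 was also above 0 in all 9. Of the 36 members, 23 had both signs among the 9, Aars and Mars2 among them, so their direction rests on the scaling or adjustment.

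The partner genes of tRNA charging were grouped by role. Of all 9934 genes, 25.6% were at least 1.5-fold lower and 17.6% higher. Length-adjusted, these shares were 14.1% and 13.2%. The scaffolds of the multisynthetase complex had 2 of 3 members at least 1.5-fold higher, Aimp1 with 0.80 and Eef1e1 with 0.72, while Aimp2 had 0.40. These are short transcripts (median 1185 bases), and length-adjusted the values were 0.18, 0.66 and -0.20. The list of cytosolic elongation factors held 6 genes, a methyltransferase gene among them, and 4 of the 6 were higher. Eef1b2 had 1.60, from 122527 to 285299 counts, Eef1d 1.06, Eef1akmt1 (a methyltransferase for the factor) 0.90 and Eef1g 0.75. Eef2 had -0.21. Length-adjusted, 2 of the 6 were higher, Eef1b2 with 1.35 and Eef1d with 0.94. In TPM, 1 of the 6 was higher and 1 lower, against 3.56% and 46.5% of all genes.
The list of editing and recycling factors held 8 genes, and Pstk, Sepsecs and Ptcd1 in it have other roles. Of the 8, 4 were higher and 2 lower (Sepsecs and Ptcd1), against 17.6% and 25.6% of all genes. Pstk, a kinase of the selenocysteine pathway, had 1.13, the editing factor gene Prorsd1 0.99 and the deacylase gene Dtd2 0.83. Sepsecs, which acts after Pstk in the same pathway, had -0.82. Length-adjusted, 3 of the 8 were higher and 0 lower: Pstk had 0.52, Sepsecs -0.29 and Ptcd1 -0.53 (from -0.62), all less than 1.5-fold from 0, while Prorsd1 had 0.81 and Dtd2 0.77. The 4 partners of mitochondrial charging all lay between, and the lowest was Gatc, a subunit of the amidotransferase that makes glutaminyl-tRNA, with -0.27. Of 6 mitochondrial elongation and initiation factors 1 was higher (Tsfm, 0.70) and 1 lower (Gfm2, -0.73), with Gfm1 at -0.51. Length-adjusted, Tsfm had 0.12 and Gfm2 -0.35, and the 1 gene at least 1.5-fold higher was Mtif3, an initiation factor gene, with 0.79 (0.32 before).

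**Figure D5:**
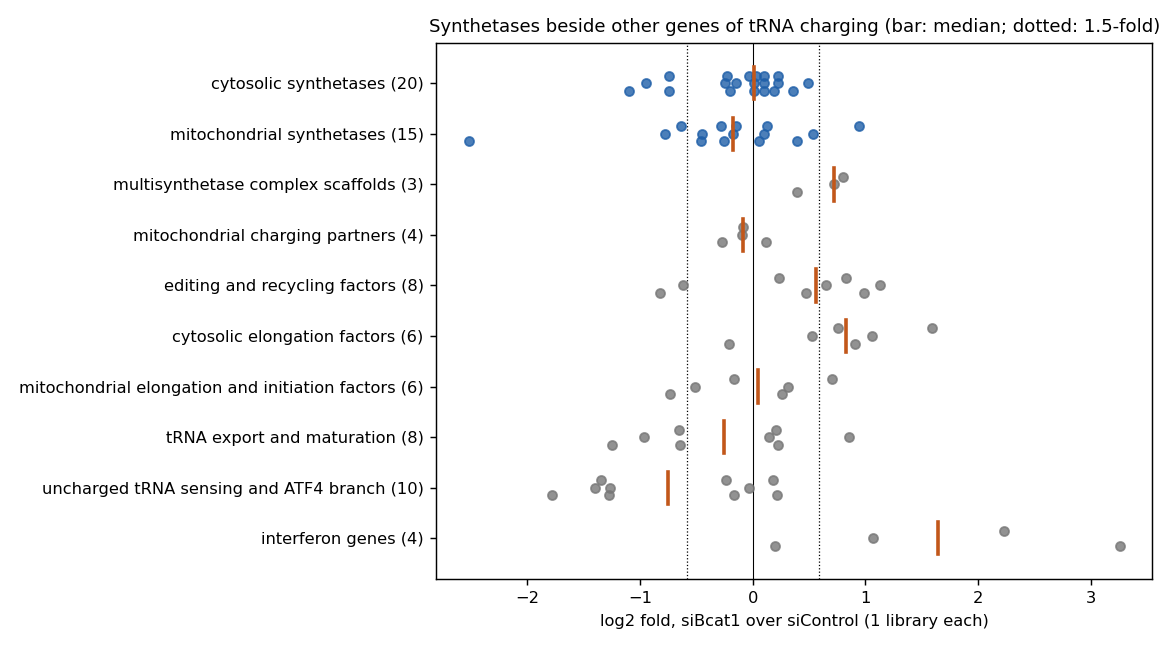
Log2 fold (siBcat1 over siControl, 1 library each) of single genes by list, with the list's median as an orange bar and dotted lines at 1.5-fold; the number of genes that passed the minimum is in brackets. Medians are 0.01 for cytosolic and -0.17 for mitochondrial synthetases, 0.83 for cytosolic elongation factors and -0.75 for uncharged tRNA sensing with the ATF4 branch.

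Genes for tRNA export and maturation were split, with 4 of 8 lower and 1 higher. Of all genes, 25.6% were lower and 17.6% higher, or 14.1% and 13.2% length-adjusted. Xpo5, a nuclear exporter of small RNAs, had -1.25 from 9416 to 3047 counts. The tRNA exporter gene Xpot had -0.65, Elac2, which trims tRNA 3′ ends, had -0.96, and the tRNA methyltransferase gene Nsun2 had 0.85. Length-adjusted, 3 of the 8 were lower, Rpp25 (a subunit of RNase P) at -1.12, Elac2 at -0.96 and Xpo5 at -0.75, and Nsun2 was higher at 0.87. Xpot, with a transcript of 6005 bases, then had 0.03. Of 10 genes for the sensing of uncharged tRNA and the ATF4 branch, 5 were lower and none was higher, beside the same shares of all genes. The median of the 10 was -0.75. Eif2ak4, the sensor kinase, had -1.27 and Gcn1l1, its coactivator, -1.35. Of the ATF4 branch, Trib3 and Chac1 had -1.78 and -1.39, and Sesn2, an inhibitor of mTORC1, had -1.27. The remaining 5 genes of the list lay within the limit. Atf4 itself had 34575 and 22627 counts and -0.24, Ddit3 -0.16 and Ppp1r15a -0.03. Asns, the asparagine synthetase gene, had 0.22 and Eif2s1 0.18. Length-adjusted, 5 of the 10 were lower, namely Trib3 at -1.99, Chac1 at -1.77, Sesn2 at -1.07, Ddit3 (a transcription factor gene) at -0.90 and Eif2ak4 at -0.74. Ddit3 had -0.16 before the adjustment, and Gcn1l1 had -0.37 after it and was not among the 5. Since all these partner lists were drawn up with earlier results of these libraries known, their counts are a description.

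Wars is known as a gene that interferon induces, so it was set beside 4 interferon genes. Isg15 had 3.26 (1197 and 8827 counts), Ifit1 2.23 and Gbp2 1.07, all higher in siBcat1. Irf1, a transcription factor gene of the pathway, had 0.19. At least 1.5-fold higher were thus 3 of the 4, against 17.6% of all genes. Length-adjusted, 3 of the 4 were again higher, against 13.2% of all genes. Isg15 then had 2.45, Ifit1 2.20, Gbp2 1.00 and Irf1 0.02. Wars had -1.10, or -1.08 length-adjusted. Any link between Wars and these genes was not tested. On the log2(TPM + 1) scale, where most genes were shifted down, Irf1 had -0.30.

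Some members share exon sequence with a neighbour in the annotation, and whether the counting used strand is not given in the sources used here. Iars2 shares 22.9% of its exon bases with Rab3gap2 on the opposite strand, and Aars shares 14.3% with Exosc6 on its own strand. Farsb shares 9.47% with Sgpp2, Fars2 shares 8.72% with Nrn1, and Hars and Hars2 overlap by 195 bases at their starts. Wars, Iars, Eprs, Lars2, Aars2 and Mars2 share none with a gene of the count table. Cars2 shares 5.83% with Naxd on the opposite strand, a symbol not found in the count table, so Cars2 was not left out below. Whether Naxd is listed there under another symbol was not checked. Reads of such stretches could be counted for either gene. Without the members that overlap a gene of the count table, 3 of 15 cytosolic and 3 of 11 mitochondrial genes were lower, against 25.6% of all genes. The medians were 0.01 and -0.28.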

How the data were processed

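RNA was sequenced in 1 library per group, and groups were taken from the treatment label. Per the labels' protocols, libraries were built with a stranded mRNA kit; FastQC, Trimmomatic, HISAT2, StringTie and build mm10 are named without versions or roles in the submitters' processing notes. Read counts per gene are raw values deposited by the authors, per the file headers. The TPM values, also deposited by the authors and named so in the file headers, sum to 998462 (siControl) and 998120 (siBcat1).

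Counts were scaled with TMM factors from edgeR 4.0.16 in R 4.3.3 (1.03 and 0.969), and edgeR and DESeq2 1.42.0 served for scaling only, since no test is possible with 1 library per group. Folds of log2(TPM + 1) understate low genes. Lengths are those of the longest GENCODE M21 (GRCm38) transcript matched by RefSeq accession. Lowess (statsmodels 0.14.6) used a fraction of 0.3 and 3 iterations. Intervals treat each read as an independent molecule, so PCR copies make them too narrow. On counts simulated for 9934 genes, 95.2% of intervals held the true fold. That simulation had Poisson counting error alone and known scaling, as the intervals assume. It checks the calculation and cannot show how well the intervals cover real differences between libraries. The members, gene lists and motifs were chosen with earlier results of these data known. Named were Bcat1, all 36 members, up to 4 genes per partner list with the largest absolute fold, and the 4 interferon genes. Eef1a1, Eef2, Sesn2, Atf4, Asns, Ddit3, Eif2s1, Ppp1r15a, Rpp25 and Ptcd1 were named besides, after their values were seen. A few genes of the partner and interferon lists are not reported here and were left out of the counts and medians of those lists. Other scalings, minimum levels, thresholds and adjustments are in the closing section.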

Additional observations from a re-analysis of the deposited data

How the results depend on the processing

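No paired analysis was possible because each group has 1 library, and no replicate could be left out. Counts of lower and higher members and both medians were recomputed under each alternative. Shares over all genes were taken only for scaled counts, length-adjusted folds and log2(TPM + 1). Counts under other scales, thresholds or minimum levels have no such share beside them. Library totals gave medians of -0.0796 (cytosolic) and -0.27 (mitochondrial), and upper-quartile factors 0.14 and -0.0467, with 1 cytosolic (Dars) and 2 mitochondrial genes higher. With log2(TPM + 1), 8 and 8 genes were lower and 0 mitochondrial genes higher, at medians of -0.49 and -0.66; with log2(TPM + 0.1) these were 8, 9, 0, -0.49 and -0.68. At a minimum of 20 CPM, 2 mitochondrial genes were left, of which 0 were lower and 0 higher. A 2-fold threshold left 1 cytosolic (Wars) and 1 mitochondrial gene (Lars2) lower, and 0 mitochondrial genes higher. The mean of the cytosolic genes was -0.13.

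With the length trend removed, 1 cytosolic gene was lower and the mitochondrial median was -0.0693, and Mars2 changed sign to 0.57. Further alternatives were chosen after seeing the data. With the implied length trend removed, 1 cytosolic and 1 mitochondrial gene were lower and 2 mitochondrial genes higher, the mitochondrial median was -0.0388, and the cytosolic minus the mitochondrial median was 0.0302 against 0.187 as reported. With length and GC trends removed, 1 cytosolic gene was lower, the mitochondrial median was 0.0703, that difference turned to -0.0377, Aars had 0.0412 and Mars2 0.19; the lower genes were then Wars, Lars2 and Rars2 (-0.69), and Aars2 had -0.49. Without members whose exons overlap a counted gene the mitochondrial median was -0.28. For these trends the cause was not tested. Leaving out Lars2, Aars, or Gars with Kars, DESeq2 size factors, whole intervals past 1.5-fold (counts only), and minimum levels of 1 CPM or none kept all counts within 1.5 times. Where medians were taken, both stayed between the median lower bound and the median upper bound of the members' counting intervals. That range is a rule of size and not the error of a median. The depth limits the mitochondrial genes most: after Iars2 the deepest, Tars2, had 2922 counts in siControl.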
